A study of Mus musculus with 4 samples.

Results

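Figla, Nobox, Lhx8, Sohlh1, Sohlh2, Taf4b and Tbpl2 encode transcription regulators of primordial follicle formation and oocyte growth, and the data described here are the ATAC-seq peaks at these 7 genes, out of 21887 protein-coding genes on the RefSeq table of mm10. They were chosen by name, with earlier results of these data known. ATAC-seq uses a transposase to insert sequencing adapters into open DNA, so a called peak marks accessible chromatin. The libraries came from female C57BL/6 mouse embryos at embryonic day 15.5, from germ cells sorted on the fluorescence of an Oct4-EGFP reporter. There were 2 control libraries (genotype Control; Control 1 and Control 2) and 2 libraries with a conditional knockout of Snf5, the protein encoded by Smarcb1 and a shared subunit of the nucleosome remodelling complexes known as SWI/SNF (genotype Snf5 CKO; Snf5 CKO 1 and Snf5 CKO 2). All 4 carried the reporter sort in common. The labels name neither the Cre driver nor the alleles, and do not say whether replicates came from separate embryos, and p-values measure only the spread between these libraries, part of which could be technical. The study asked how SWI/SNF acts on gene activation in the female germline.

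In oocytes these genes form a network of regulators. FIGLA, SOHLH1 and SOHLH2 are basic helix-loop-helix proteins, a family that binds the E-box, written CANNTG. NOBOX and LHX8 are homeodomain proteins. TAF4B and TBPL2 are germline counterparts of TAF4 and TBP in the general transcription machinery, and TBPL2 acts in growing oocytes. Mouse female germ cells at this stage are in meiotic prophase, before follicles form, and mutants of several of these genes lose oocytes around or after birth.

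The 4 lists held 39463 and 36728 peaks in the controls and 45420 and 28623 in Snf5 CKO 1 and 2, covering 27.4, 25.2, 24.3 and 16.9 Mb of the chromosomes. Snf5 CKO 2 thus had the fewest peaks and the least covered length. Smarcb1 had a peak at its gene ends in both controls, with the authors' fold enrichment at 4.37 and 4.19, and in neither Snf5 CKO library. Of 8 germ cell marker genes, 7 had a peak at a gene end in all 4 libraries and Tdrd1 in both controls alone. Peaks were also called in all 4 libraries at 6 of 8 supporting cell markers, Foxl2 among them, and at 2 of 6 stroma markers. The same held for 2 of 6 endothelial and blood markers, Kdr and Tal1. Of the other markers in that list, Cdh5, Ptprc and Hbb-bs had no peak and Pecam1 had one in Control 1 alone. Among all protein-coding genes, 55.0% had a peak at a gene end in all 4 libraries. Open chromatin is not expression, and the part of other cell types in the results was not tested.

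The promoter letters are shown for 5 of the 6 members with an annotated start. Lhx8, which has no E-box and no peak on its promoter bases, is left out. Each line gives the 250 bases before the annotated start, 5′ to 3′, from the RefSeq promoter table of GRCm38.p6, the assembly of mm10, with E-boxes (CANNTG, on either strand) in capitals. Figla and Sohlh2 had peaks over these bases in every library, Nobox in some, and Sohlh1 and Tbpl2 in none.
Figla promoter, chr6:86016941-86017190, plus strand: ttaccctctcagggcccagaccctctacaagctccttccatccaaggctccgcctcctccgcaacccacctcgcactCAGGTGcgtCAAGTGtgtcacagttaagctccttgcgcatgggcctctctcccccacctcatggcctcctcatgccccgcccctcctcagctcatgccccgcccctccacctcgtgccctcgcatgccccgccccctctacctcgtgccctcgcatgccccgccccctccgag
Sohlh2 promoter, chr3:55181794-55182043, plus strand: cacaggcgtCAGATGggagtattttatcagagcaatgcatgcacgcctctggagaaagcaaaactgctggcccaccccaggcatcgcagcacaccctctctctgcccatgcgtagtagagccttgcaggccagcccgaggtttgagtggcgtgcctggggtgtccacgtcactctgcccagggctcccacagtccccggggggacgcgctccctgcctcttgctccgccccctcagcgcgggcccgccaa
Nobox promoter, chr6:43309555-43309804, minus strand: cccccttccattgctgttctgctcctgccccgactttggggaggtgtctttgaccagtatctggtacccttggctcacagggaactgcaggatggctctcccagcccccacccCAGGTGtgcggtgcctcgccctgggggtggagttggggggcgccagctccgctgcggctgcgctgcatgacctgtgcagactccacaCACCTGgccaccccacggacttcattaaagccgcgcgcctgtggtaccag
Sohlh1 promoter, chr2:25847249-25847498, minus strand: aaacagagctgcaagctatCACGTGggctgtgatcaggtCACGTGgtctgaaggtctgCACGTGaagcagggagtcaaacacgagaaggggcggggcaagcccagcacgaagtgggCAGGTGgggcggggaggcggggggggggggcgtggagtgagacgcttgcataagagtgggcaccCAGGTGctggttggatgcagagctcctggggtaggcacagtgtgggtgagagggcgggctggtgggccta
Tbpl2 promoter, chr2:24096596-24096845, minus strand: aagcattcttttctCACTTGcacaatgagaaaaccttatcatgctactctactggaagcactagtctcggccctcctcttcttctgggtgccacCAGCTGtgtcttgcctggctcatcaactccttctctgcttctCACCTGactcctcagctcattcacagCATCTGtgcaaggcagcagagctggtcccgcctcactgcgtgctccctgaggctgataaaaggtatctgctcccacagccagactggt

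The 7 genes had 3 patterns of accessibility. Figla, Sohlh2 and Taf4b had a peak in all 4 libraries within 1 kb of a gene end. Nobox and Lhx8 had one in both controls and in only 1 Snf5 CKO library, and Sohlh1 and Tbpl2 had none in any library. Each control therefore had 5 open members and each Snf5 CKO library 4. Among all protein-coding genes 55.0% were open in all 4 libraries and 33.6% in none, so 3 and 2 of 7 are near the background. No member had the pattern of loss, a peak in both controls and in neither Snf5 CKO library, against 4.84% of the 13421 genes open in both controls. None had the reverse pattern, against 0.534% of the 7674 genes closed in both controls. Of the 5 members open in both controls, 2 kept a peak in exactly 1 Snf5 CKO library, against 5.52% of such genes. These 2, Nobox and Lhx8, had weak peaks. With a minimum −log10 q of 3, or with lists of the same length, Nobox was not open in Control 2 and Lhx8 was not open in Control 1. Neither was then open in both controls. With 2 libraries against 2 there are 3 ways to split them, and the smallest two-sided exact permutation p is 0.333, so no difference at a single gene could pass 0.05.

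**Figure D1:**
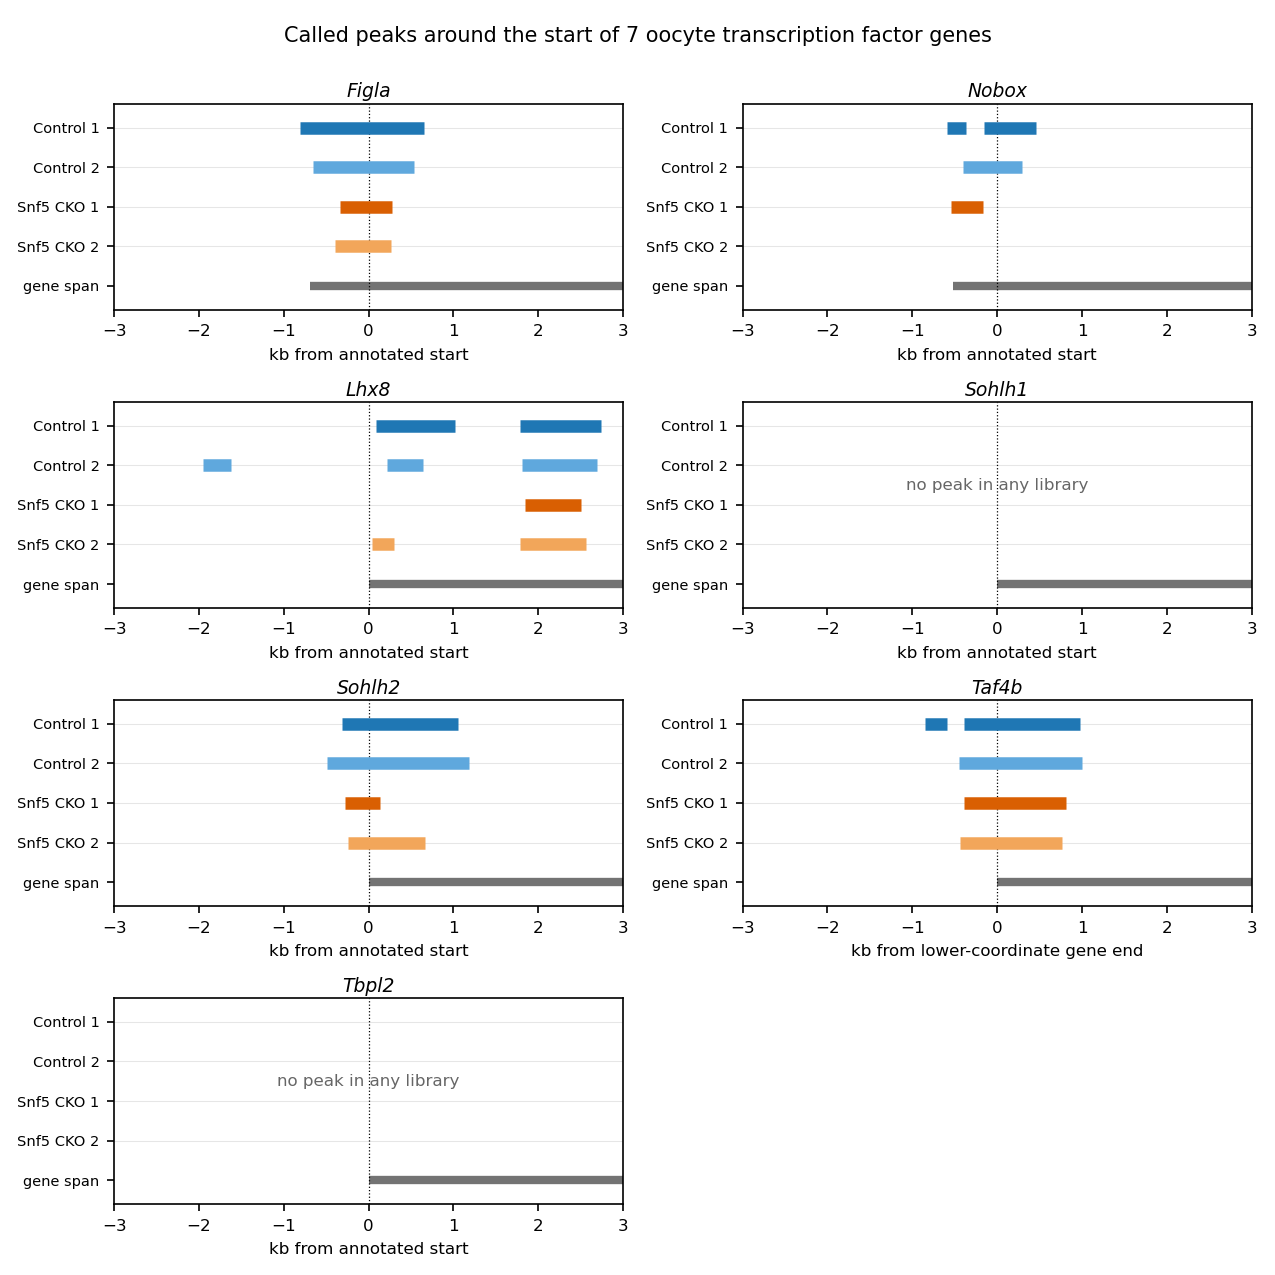
Peaks called in each library (coloured bars, to scale) within 3 kb of the annotated start of each gene, in the direction of transcription; for Taf4b, whose start was not in the promoter table, the zero is its lower-coordinate gene end. The Snf5 CKO bars at Figla and Sohlh2 lie inside the control bars, no Snf5 CKO bar crosses the Nobox start, and Sohlh1 and Tbpl2 have no bar.

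The 3 helix-loop-helix genes are described first. Figla, required for the primordial follicle and for zona pellucida gene expression, lies at chr6:86016494-86020996 (gene identifier 26910, plus strand), with its annotated start at 86017191, 697 bp inside the lower gene end. Its peak covered the start and all 250 promoter bases in every library. The peak was 1471 bp long in Control 1 and 1189 bp in Control 2, against 612 and 665 bp in Snf5 CKO 1 and 2. Both knockout peaks were shorter than both control peaks, and the groups did not overlap. The means were 1330 ± 199 bp and 638 ± 37.5 bp (SD, n = 2 each), a log2 ratio of −1.05 (exact permutation p = 0.333). The length was lower on both sides of the start. Upstream the peak reached 812 and 659 bp from the start in the controls and 334 and 400 bp in Snf5 CKO. Downstream it reached 658 and 529 bp in the controls and 277 and 264 bp in Snf5 CKO. Across the 7298 genes with 1 annotated start under a peak in all 4 libraries, the median reach upstream was 459, 454, 373 and 341 bp in the order Control 1, Control 2, Snf5 CKO 1 and Snf5 CKO 2, and downstream 616, 602, 431 and 417 bp. A shorter reach in both knockout libraries was found upstream at 55.5% of those genes and downstream at 72.7%.

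The height of the Figla peak can be read only within each list. The authors' fold enrichment over local background was 4.31 and 5.11 in the controls and 4.80 and 4.46 in Snf5 CKO. Within each list, 39.7%, 69.4%, 38.1% and 28.7% of open genes had a lower fold than Figla, in the same order of libraries. These ranks describe each list alone, since ranks from lists of different length cannot show a change between libraries.

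Sohlh2, which with SOHLH1 drives early oocyte differentiation, lies at chr3:55182044-55209957 (gene identifier 74434, plus strand), with its start at the lower gene end. In Control 1 its peak was 1370 bp long and in Control 2 1671 bp, against only 415 and 909 bp in Snf5 CKO 1 and 2. The shortest peak was that of Snf5 CKO 1, and the groups did not overlap. The means were 1520 ± 213 bp and 662 ± 349 bp (SD, n = 2 each), a log2 ratio of −1.30 (exact permutation p = 0.333). The difference lay mostly inside the gene. Downstream of the start the peak reached 1058 and 1183 bp in the controls but 138 bp in Snf5 CKO 1 and 666 bp in the other knockout library. Upstream it reached 311 and 487 bp in the controls and 276 and 242 bp in Snf5 CKO. Across the 7298 genes given above, reach was shorter in both knockout libraries downstream at 72.7% and upstream at 55.5%. The promoter bases shown above stayed under the peak almost entirely, with 250 bases covered in 3 libraries and 242 in Snf5 CKO 2. The fold was 4.60 and 4.15 in the controls, 6.78 in Snf5 CKO 1 and 4.25 in Snf5 CKO 2. A lower fold than that of Sohlh2 was found at 49.7%, 34.9%, 84.3% and 22.8% of the genes open in each list, in the same order of libraries.

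Sohlh1, the partner of SOHLH2, lies at chr2:25842995-25847248 (gene identifier 227631, minus strand). No library had a peak within 1 kb of either end or anywhere in the gene. The nearest peaks were 6.38 kb beyond its 3′ end, at chr2:25836306-25836611, with no peak in Control 1 and folds of 4.31 in Control 2 and of 4.30 and 4.40 in the knockout libraries. On the other side a peak 16.4 kb upstream of the start lay at the end of the neighbouring potassium channel gene Kcnt1 in all 4 libraries.

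The Sohlh1 promoter, shown above, holds 11 CpG dinucleotides in the 250 bases, close to the median of 10 over 21263 promoters. Of the 1641 promoters with 10 to 12 CpG, 78.4% had a peak within 1 kb of the start in all 4 libraries and 5.73% in none. The same bases hold 5 E-boxes, a number reached by 0.818% of promoters, and 3 of these are CACGTG, a form bound by MAX and its partners, at 231, 211 and 192 bases before the start. Only 16 promoters (0.0752%) hold 3 or more CACGTG. Of those 16, 14 were open in all 4 libraries, and Sohlh1 and Slc51a, a steroid transporter gene whose promoter has 3 CpG, were open in none. Slc51a was named after its value was seen. A match of letters is a description and not a binding site.

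The homeodomain genes had weaker and less regular peaks. Nobox, needed for the transition from primordial to growing follicles, lies at chr6:43303674-43310072 (gene identifier 18291, minus strand), with its annotated start at 43309554, 518 bp inside the higher gene end. Peaks there were 604 and 220 bp long in Control 1 and 696 bp in Control 2. In Snf5 CKO 1 there was 1 peak of 372 bp, and in Snf5 CKO 2 none. The 604 bp peak of Control 1 and the peak of Control 2 covered the start, whereas the peak of Snf5 CKO 1 ended 172 bp upstream of it. The start base was thus under a peak in both controls and in neither Snf5 CKO library, a pattern found at 4.33% of the 10298 genes whose start was under a peak in both controls. Of the 6 members with an annotated start, Figla and Sohlh2 had it under a peak in all 4 libraries, against 52.7% of 17492 genes. Of the 250 promoter bases shown above, peaks covered 150 and 250 in Controls 1 and 2, 79 in Snf5 CKO 1 and 0 in Snf5 CKO 2. The E-boxes of this promoter begin 137 and 50 bases before the start, outside the stretch covered in Snf5 CKO 1.

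The Nobox peaks differed in their place within each list. Folds were 3.99 and 3.03 in Control 1, 3.19 in Control 2 and 3.24 in Snf5 CKO 1. Of open genes, 28.7% had a lower highest fold than Nobox in Control 1, 7.56% in Control 2 and 4.53% in Snf5 CKO 1. Control 1 had −log10 q values of 4.26 and 1.92, Control 2 of 2.10 and Snf5 CKO 1 of 1.75, where the smallest value in the 4 lists was 1.003. When 3 was the minimum −log10 q, only Control 1 was open at Nobox. Without Snf5 CKO 1, Nobox would count as the 1 member lost.

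Lhx8, required for oocyte survival and for the oocyte expression program, lies at chr3:154306288-154330560 (gene identifier 16875, minus strand), with its start at the higher gene end. Just inside the gene, Control 1 had a peak of 925 bp, Control 2 of 426 bp and Snf5 CKO 2 of 250 bp, and Snf5 CKO 1 had none. None of them reached the start, and their nearest edges lay 88, 216 and 45 bp downstream. The folds were 1.93, 2.33 and 2.60, among the lowest of any open gene end: 0.0144%, 0.261% and 0.0810% of open genes had a lower fold in the same lists. The −log10 q values were 1.86, 3.63 and 1.59 in the same order. When 3 was the minimum −log10 q, only Control 2 was open at the Lhx8 gene ends. The promoter has 4 CpG and no E-box, and no library had a peak on its 250 bases. Farther into the gene, 2.26 kb from the start, a region at chr3:154327821-154328779 had a peak in all 4 libraries, of 959 and 877 bp in the controls and 657 and 782 bp in Snf5 CKO. Those groups did not overlap (918 ± 58.0 against 720 ± 88.4 bp, SD, n = 2 each; exact permutation p = 0.333). At gene ends, shorter peaks in both knockout libraries were found at 78.2% of the genes open in all 4 libraries. With windows of 2 kb this region was counted and Lhx8 was open in all 4 libraries. Without Snf5 CKO 2, Lhx8 would count as the 1 member lost at its gene ends.

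The counterparts of the general transcription machinery differed from each other. Taf4b, a TFIID subunit gene that supports the primordial follicle pool, lies at chr18:14783201-14960424 (gene identifier 72504). The peak at its lower-coordinate end was 1378 and 1454 bp long in Controls 1 and 2, and 1195 and 1209 bp in Snf5 CKO 1 and 2. The groups did not overlap, but their distance was small beside that at Figla and Sohlh2, with means of 1416 ± 53.7 and 1202 ± 9.90 bp (SD, n = 2 each) and a log2 ratio of −0.24 (exact permutation p = 0.333). The fold was 4.51 and 4.13 in the controls and 5.49 and 5.58 in Snf5 CKO, where the median over all open genes was 4.61 and 4.57 in the controls and 5.22 and 5.14 in Snf5 CKO. The −log10 q of 12.1 to 16.8 was the highest among the members' gene ends in each library. Its start is not in the promoter table, and no promoter letters are given.

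Tbpl2, the oocyte TBP counterpart, lies at chr2:24071366-24096595 (gene identifier 227606, minus strand). No library had a peak in the gene or within 20 kb on either side of it. This was so for 12.3% of protein-coding genes. Its promoter holds 3 CpG and 4 E-boxes. Of the 1365 promoters with exactly 3 CpG, 74.7% had no peak within 1 kb in any library and 11.9% had one in all 4.

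**Figure D2:**
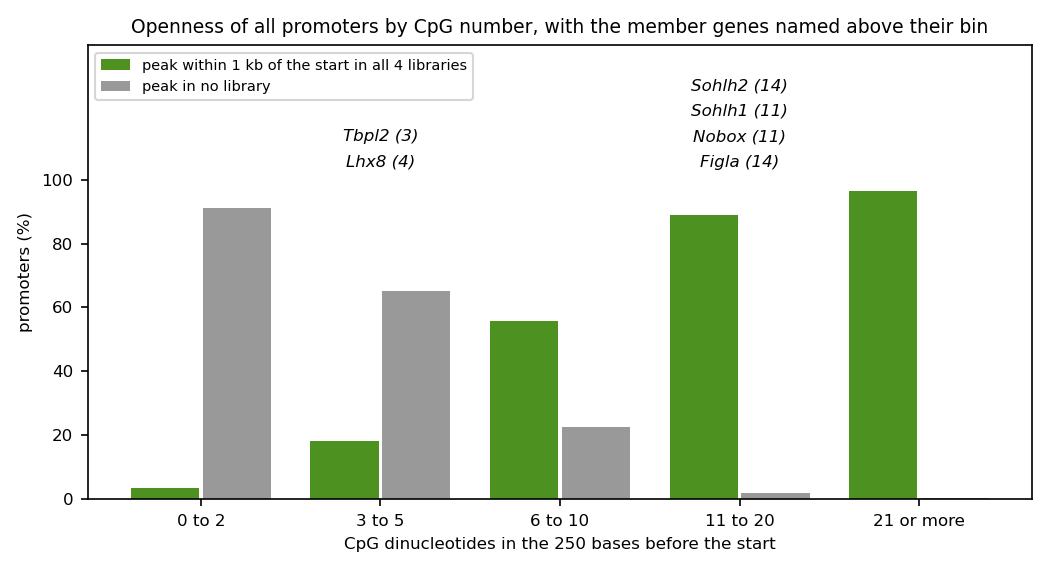
Share of all promoters (percent) with a peak within 1 kb of the start in all 4 libraries (green) or in none (grey), by the number of CpG dinucleotides in the 250 bases before the start; members are written above their bin with their own number. Of promoters with 11 to 20 CpG, 89.0% were open in all 4 libraries and 1.83% in none, which is the bin of Sohlh1, while Tbpl2 and Lhx8 lie in a bin where 65.1% were open in none.

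Set side by side, the 3 members open in all libraries had log2 length ratios of −1.30 for Sohlh2, −1.05 for Figla and −0.24 for Taf4b. All 3 had shorter peaks in both Snf5 CKO libraries than in both controls, as did 78.2% of the 12030 genes open in all 4 libraries, so the count is near the background. The median log2 ratio of those genes was −0.41, and the middle part of the distribution, from the 25th to the 75th percentile, ran from −0.65 to −0.23. Sohlh2 and Figla lay toward its lower end, with 3.96% and 7.81% of genes having a lower ratio, and Taf4b toward its upper end, with 74.7% lower. The place of Sohlh2 depended most on Snf5 CKO 1, and that of Figla moved with Snf5 CKO 1 and with Control 1. Without Snf5 CKO 1 the log2 ratio of Sohlh2 was −0.74, with 24.9% of the 12147 genes open in the other 3 libraries lower. That of Figla was then −0.99, with 14.0% lower. Without Snf5 CKO 2 the share lower than Sohlh2 was 1.17%, and without Control 1 or Control 2 it was 2.70% or 7.15%. The share lower than Figla was 11.8% without Control 1. The order of Sohlh2 and Figla cannot be told apart at this spread, since the Snf5 CKO lengths of Sohlh2 lie on both sides of those of Figla. The median lengths of these genes were 1133 and 1105 bp in the controls and 846 and 800 bp in Snf5 CKO. Library depth and background, on which the length of a peak can depend, were not known.

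**Figure D3:**
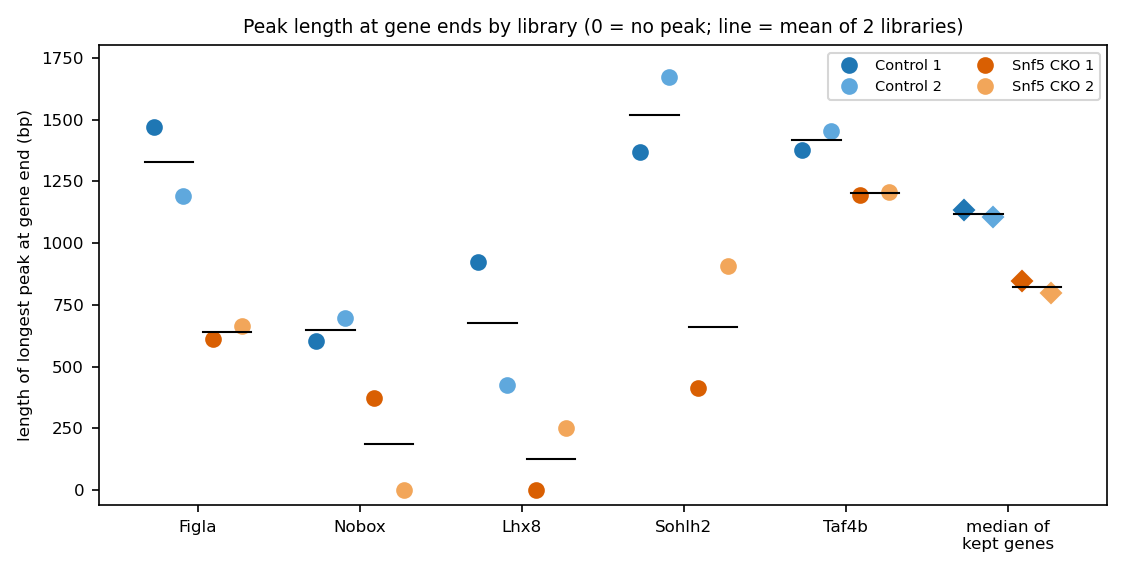
Length in bp of the longest peak touching a gene-end window, for the 5 members with such a peak and for the median over the 12030 genes open in all 4 libraries. Points are libraries, 0 means no peak and lines are means of 2 libraries. The control points lie above the Snf5 CKO points in all 5 members, where Nobox in Snf5 CKO 2 and Lhx8 in Snf5 CKO 1 are at 0. Both Snf5 CKO peaks were shorter than both control peaks at 78.2% of the 12030 genes.

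**Figure D4:**
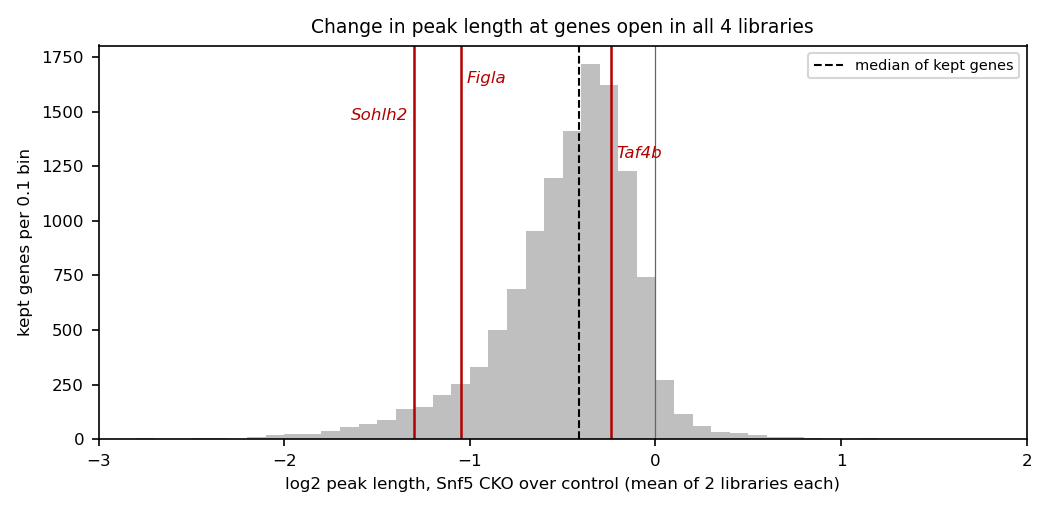
Number of genes open in all 4 libraries by their log2 ratio of peak length, Snf5 CKO over control. Red lines mark Sohlh2 at −1.30, Figla at −1.05 and Taf4b at −0.24, and the dashed line marks the median of −0.41.

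The promoters shared few of the other elements searched, each on both strands of the 250 bases. CNCCTCAG, an element described for STRA8, was found once each in Figla, Sohlh2 and Tbpl2, and in 6.75% of all promoters. In Figla it begins 91 bases before the start, in Sohlh2 22 and in Tbpl2 107. The GC box GGGCGG was found 4 times in Figla, 3 times in Sohlh1 and once in Sohlh2, and in 42.6% of promoters. AGGTCA, letters bound by retinoic acid receptors, was found once in Nobox and once in Sohlh1, and in 12.8% of promoters. The homeodomain letters TAATTA and TAATTG, the TATA box TATAAA and the AP-1 element TGANTCA were not in any of the 6 promoters, and were in 4.31%, 6.28%, 11.6% and 6.13% of all promoters. E-boxes were in 5 of the 6, and in 62.8% of all promoters, Lhx8 being the member without one. GGCGGGA, an E2F element, was in Tbpl2 alone and in 12.9% of promoters.

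Beyond the gene ends, peaks in the surroundings of the members were examined. Peaks of the 4 lists were merged where they overlapped, which gave 23 regions in the members plus 20 kb on either side. Of these, 6 had a peak in all 4 libraries, 2 in both controls alone and 2 in both Snf5 CKO libraries alone, and 8 in a single library. Over all 66056 merged regions the shares were 29.4% in all 4, 7.58% in both controls alone and 5.08% in both Snf5 CKO libraries alone, so 6, 2 and 2 of 23 are near the background. A single library held 44.3% of all merged regions, against 8 of 23. The count in Snf5 CKO alone was 7 without Snf5 CKO 2, and that in controls alone 4 whichever library was left out. With a library left out, the remaining library alone decides for its group, which is a looser rule. The shares over all merged regions are for all 4 libraries. No such share is given with a library left out, so the counts of 7 and 4 were not compared with a background.

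The regions seen in both controls alone were upstream of Figla and beyond Sohlh2. The Figla region lies 13.5 kb upstream of the start, at chr6:86003479-86003868, inside the long non-coding gene Gm33319, with folds of 4.15 and 3.51. The Sohlh2 region lies 16.8 kb past the higher gene end, at chr3:55226800-55227174, with folds of 3.64 and 4.57. Beside the first, 12.7 kb upstream of Figla, a region at chr6:86004141-86004789 had a peak in all 4 libraries. Its lengths were 404 and 613 bp in the controls and 488 and 263 bp in Snf5 CKO, and the groups overlapped. The region 11.9 kb downstream of the Figla start belongs to the end of Add2, a cytoskeletal adducin gene; it had peaks in both controls and in Snf5 CKO 1.

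The regions seen in both Snf5 CKO libraries alone were upstream of Nobox and inside Taf4b. The Nobox region lies 17.2 kb upstream of the start, at chr6:43326538-43326961, with peaks of 424 and 200 bp and folds of 4.75 and 3.86. The Taf4b region lies 61.0 kb from its lower end, at chr18:14844210-14845241, with peaks of 1032 and 317 bp and folds of 3.97 and 4.21. Taf4b had 4 more regions in Snf5 CKO 1 alone, 3 of them inside the gene, and Snf5 CKO 1 is the library with the most peaks. The region 12.2 kb upstream of Lhx8, at chr3:154342597-154343002, had peaks in Control 1, Control 2 and Snf5 CKO 2, the same 3 libraries as the peak at the Lhx8 gene end.

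**Figure D5:**
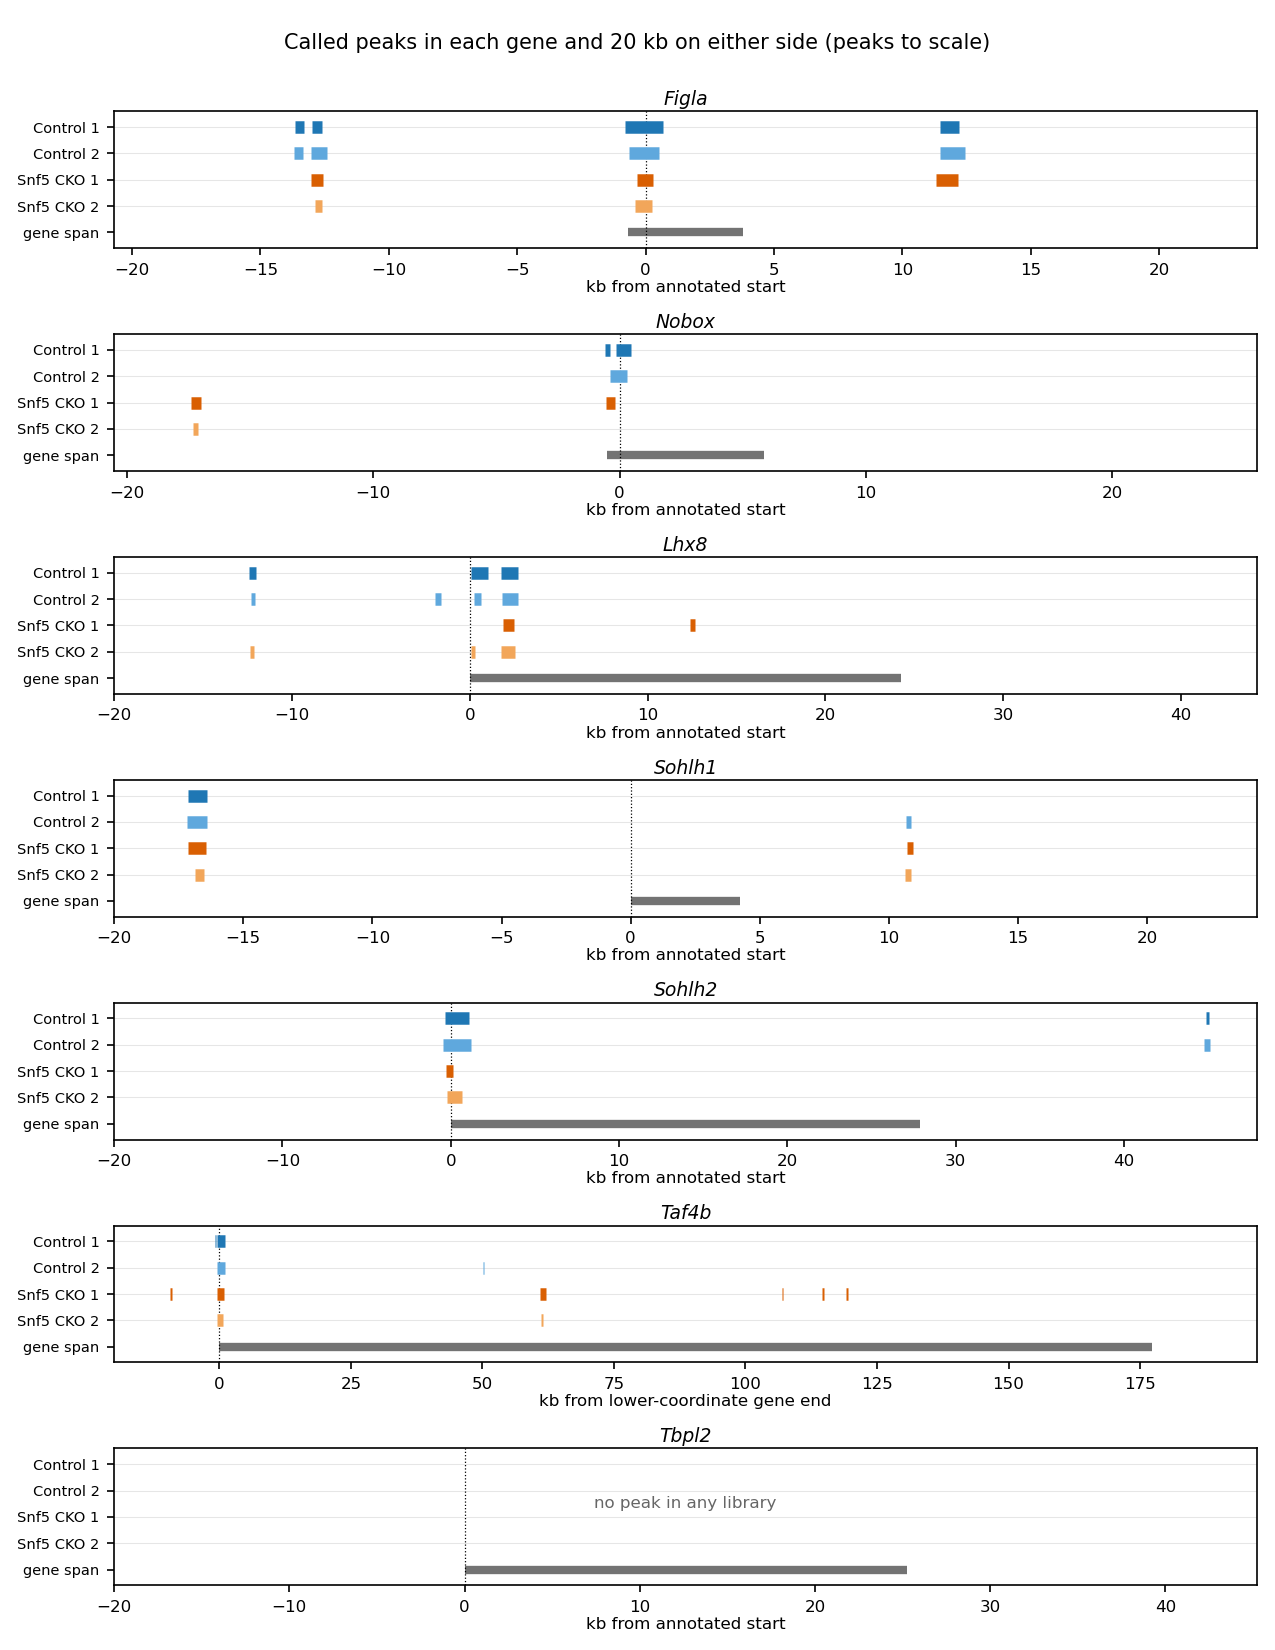
Peaks called in each library (coloured bars, to scale) in each gene and 20 kb on either side, in kb from the annotated start in the direction of transcription, or from the lower-coordinate end for Taf4b. Figla has a control-only bar 13.5 kb upstream, Nobox a Snf5 CKO-only bar 17.2 kb upstream, and Tbpl2 has no bar.

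The total length under peaks in the same windows was lower in both Snf5 CKO libraries than in both controls at 3 of the 7 members. The same held for 53.6% of all protein-coding genes, so the count is near the background. The length was 2963 and 3119 bp in the controls and 1948 and 928 bp in Snf5 CKO at Figla. At Sohlh2 it was 1583 and 2046 bp against 415 and 909 bp. At Lhx8 it was 2290 and 1860 bp against 950 and 1236 bp. Each of these gave an exact permutation p of 0.333. At Taf4b the knockout libraries had 3287 and 1526 bp on both sides of the controls at 1639 and 1708 bp, and at Nobox and Sohlh1 the groups also overlapped. Over the chromosomes, the lists covered less in both Snf5 CKO libraries than in both controls, as given above, and the part of this in these sums was not tested. Without Snf5 CKO 1, 6 members had fewer covered bases in the knockout. The share of 53.6% is for all 4 libraries, and the count of 6 has no matching share beside it.

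Other genes of the oocyte program give the setting. Of 23 genes expressed in oocytes, many of them targets of FIGLA, NOBOX, LHX8 or the SOHLH proteins, 7 were open in all 4 libraries, 11 in none, 1 in both controls alone and 4 in 1 or 2 libraries. The zona pellucida genes Zp1 and Zp2 and the growth factor gene Bmp15 had no peak, and Zp3 had one of 200 bp in Control 1 alone. Ooep, a maternal-effect gene, had peaks of 812 and 658 bp in the controls and none in Snf5 CKO. Npm2, a nucleoplasmin gene of the egg, had peaks of 299 bp in Control 2 and 200 bp in Snf5 CKO 2. Mos, a kinase gene of oocyte maturation, had one of 200 bp in Control 2, and Rfpl4 one of 245 bp in Snf5 CKO 1. Gdf9, a growth factor gene of the oocyte, was open in every library, with 1136 and 996 bp against 848 and 783 bp. The median log2 length ratio of the 7 open genes was −0.19. At one end was Zar1, a maternal-effect gene, with −0.78. At the other was Dppa3, which acts in germ cells and early embryos, with 1.05, its peaks being 200 and 268 bp in the controls and 562 and 409 bp in Snf5 CKO.

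Of 24 genes of follicle formation and dormancy, 20 were open in all libraries and 4 in none, with a median log2 length ratio of −0.55 and shorter peaks in both Snf5 CKO libraries at 19. The ratio was most negative, −1.44, at Foxl2, a granulosa cell factor gene, and nearest to zero, −0.03, at Kitl, the gene of KIT ligand. Of 11 other transcription regulators of oocytes, 9 were open in all libraries, all 9 with shorter peaks in both knockout libraries and a median of −0.65. They ranged from −1.86 at Sall4, a zinc finger gene of germ cells, to −0.18 at Sp1. Zfx, an X-linked zinc finger gene, had no peak in Snf5 CKO 1, and Gata4 had no peak in any library. Over the 12030 genes open in all libraries, 55.0% of protein-coding genes, the median was −0.41 and 78.2% had shorter peaks in both knockout libraries.

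Of 25 paralogues and partners of the members, mostly TFIID genes, 21 were open in all libraries with a median of −0.29. Shorter peaks in both knockout libraries were found at 13 of the 21, against 78.2% of all genes open in all libraries. Taf4, the widely expressed paralogue of Taf4b, had peaks of 2678 and 2617 bp in the controls and 801 and 895 bp in Snf5 CKO, a log2 ratio of −1.64, the most negative of this list. The ratio was thus −1.64 at Taf4 and −0.24 at Taf4b. Taf8 had the highest ratio, 0.14, with knockout peaks of 1090 and 591 bp on both sides of the controls. Tbp, the paralogue of Tbpl2 used in most cells, was open in all libraries, with 816, 695, 642 and 779 bp, and Lhx6, the closest relative of Lhx8, with 1079, 723, 719 and 723 bp. Gtf2a1l, a germ cell form of a TFIIA subunit gene, and Taf9b had peaks in both controls alone, with folds of 2.90 to 3.21. Taf1 and Ldb1 had no peak at their gene ends, which can miss a start inside a gene.

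By peak length over the 4 libraries, the list gene most like Figla was Rptor, with 1547, 1330, 638 and 664 bp (root mean square difference 0.09 in log2 length, among 57 genes). For Taf4b it was Kit, with 1463, 1413, 1300 and 1224 bp (0.08). For Sohlh2 it was Taf5, with 1367, 1354, 426 and 1140 bp (0.22). The likeness is over 4 libraries and describes length alone.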

How the data were processed

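DNA of sorted germ cells was tagmented and sequenced with 50 bp reads, per the labels' description. The submitters' processing notes name the build mm10 and, without saying what each did, MACS2 (2.2.7.1), Picard (2.25.2), SAMtools (1.10), Bowtie2 (2.4.2) and Trim Galore (0.6.5). For duplicate and mitochondrial reads, any read shift and the calling thresholds, the treatment is not given in the sources used here. Each library has its own deposited list of broad peaks, with a score (10 times the −log10 q), a fold enrichment, a −log10 p and a −log10 q per peak. These values are the authors' own; they were ranked only inside their list and not tested between lists. Read depth is unknown, since no counts were used.

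Peaks were counted 1 kb either side of both annotated gene ends, with at least 1 bp of overlap, and in the gene plus 20 kb (Python 3.11.15, numpy 2.4.6). Length is that of the longest peak touching the windows. The calling rule was run on simulated peaks that did not vary between the libraries of a group. Weak or partly detected peaks were not simulated. Groups were compared by exact two-sided permutation over 4 libraries. Annotated starts and letters came from the RefSeq promoter table, which held 6 of the 7 members. Members, gene lists and motifs were chosen with earlier results of these data known. Named list genes have a peak in 1 to 3 libraries or the extreme ratio of their list; others, such as the paralogues, Gdf9 and closed genes, were picked after their values were seen. Alternatives changed the q threshold, list length, windows, overlap, measure of length, pairing and libraries.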

Additional observations from a re-analysis of the deposited data

How the results depend on the processing

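Figla, Sohlh2 and Taf4b had a peak in all 4 libraries, and Sohlh1 and Tbpl2 in none, under each alternative in which they could be placed. Taf4b has no start in the promoter table and was not placed there. Many alternatives could not have changed these calls, leaving out a library among them. The q threshold, list length, narrower windows, overlap and windows around starts could only have removed peaks from the open members. For Sohlh1 and Tbpl2 only the windows of 2 kb could have added a peak. With a minimum −log10 q of 3, or with lists of the same length, neither Nobox nor Lhx8 was open in both controls. The replicate block, which compares libraries with the same number, could not change the 3 members with shorter peaks, since their groups did not overlap. The difference between replicates 1 and 2 correlated by −0.02 between the groups over 12030 genes, so the numbers were not taken as pairs. Log2 length ratios lay between −1.21 and −0.90 for Figla, −1.87 and −0.74 for Sohlh2, and −0.44 and −0.20 for Taf4b over the alternatives. Those of Figla and Sohlh2 moved only when a library was left out. Leaving out a library could not change the sign of any of these ratios, since the groups did not overlap. Leaving out Snf5 CKO 1 made Nobox the 1 lost member, and leaving out Snf5 CKO 2 made Lhx8 the 1 lost member, where none was lost with all libraries (range 0 to 1). Of the pathway list genes, 3 were lost as reported (Ooep, Taf9b and Gtf2a1l), but 1 when the minimum −log10 q was 3, whether applied to all peaks or to presence, and 1 with windows of 2 kb. None was gained as reported, but 1 with windows of 500 bp, 1 with windows around annotated starts, an alternative chosen after seeing the data, and 0 to 1 when a library was left out. Of the regions near the members, 2 were lost and 2 gained as reported. Within 10 kb, 0 were lost and 1 gained. Within 50 kb, 10 were kept, against 6, and 5 members had fewer covered bases in both Snf5 CKO libraries, against 3. A minimum −log10 q of 3 left 1 gained. Leaving out a library gave 4 lost regions in each case, 2 to 7 gained, the 7 without Snf5 CKO 2, and 3 to 6 members with fewer covered bases, the 6 without Snf5 CKO 1. No share over all genes or regions is given with a library left out, so these counts have no background beside them. The alternatives also moved 16 values that belong to single members, 14 of them ranks within a list and 2 length ratios of Taf4b. The causes were not tested. Precision is limited by 2 libraries a group and by unknown depth: a start without a peak may be open below what a library could detect.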
